A study of Mus musculus with 7 samples.

Results

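The genes described here carry glucose into the cell, split it into pyruvate, exchange pyruvate with lactate and move pyruvate into the mitochondrion. They are a list of 35 genes, chosen by their roles out of all genes counted, and they were followed in single-cell RNA sequencing (scRNA-seq) of the mouse ventricular-subventricular zone (V-SVZ), the neurogenic wall of the lateral ventricle. Control mice were Prdm16flox/flox littermates without Cre (labelled Prdmflox/flox, 3 libraries). Prdm16 conditional knockout (cKO) mice were hGFAP-Cre+/-; Prdm16flox/flox (3 libraries). Prdm16-Vcam1 double knockout (DKO) mice were hGFAP-Cre+/-; Prdm16flox/flox; Vcam1flox/flox (1 library). All mice were 31 to 33 days old, and each library pooled 2 to 3 mice of both sexes. The floxed Prdm16 alleles were common to all groups, and the hGFAP-Cre transgene, which acts in embryonic radial glia and in astrocytes, was absent from the controls, so Cre itself and the deletion cannot be told apart. Of 65049 barcodes in the files, 43346 had 500 to 7000 detected genes and at most 10% mitochondrial counts and were kept, and 36931 of them (85.2%) fell into 11 marker-defined cell types.

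Glycolysis begins with glucose transporters (Slc2a1, Slc2a3) and hexokinases (Hk1, Hk2), and its committed step is phosphofructokinase (Pfkl, Pfkm, Pfkp), which is activated by fructose 2,6-bisphosphate, the product of Pfkfb2 and Pfkfb3. Aldolases (Aldoa, Aldoc) split the hexose, and the lower enzymes (Tpi1, Gapdh, Pgk1, Pgam1, Eno1, Eno2, Pkm) yield pyruvate. Lactate dehydrogenases (Ldha, Ldhb) interconvert pyruvate and lactate, which cross membranes through monocarboxylate transporters (Slc16a1, Slc16a3, Slc16a7). The mitochondrial pyruvate carrier (Mpc1, Mpc2) brings pyruvate to the pyruvate dehydrogenase complex (Pdha1, Pdhb, Dlat, Dld), which the kinases Pdk1 to Pdk4 switch off, or to pyruvate carboxylase (Pcx). In the brain, astrocytes are known for glycolysis and lactate release, neurons for oxidation, and neural stem cells (NSCs) for a metabolism that changes as they leave quiescence.

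The start-site windows of the 3 members with the smallest p between cKO and control libraries are shown here, together with that of Ldha, a textbook target of the hypoxia-inducible factor. Each window holds 250 bases before and 50 bases after a RefSeq transcript start (GRCm38.p6), read 5′ to 3′ along the gene, and capitals mark the motifs ACGTG or GCGTG on either strand. CACGTG holds ACGTG on both strands.
Pfkfb3, chr2:11502041-11502340, minus strand: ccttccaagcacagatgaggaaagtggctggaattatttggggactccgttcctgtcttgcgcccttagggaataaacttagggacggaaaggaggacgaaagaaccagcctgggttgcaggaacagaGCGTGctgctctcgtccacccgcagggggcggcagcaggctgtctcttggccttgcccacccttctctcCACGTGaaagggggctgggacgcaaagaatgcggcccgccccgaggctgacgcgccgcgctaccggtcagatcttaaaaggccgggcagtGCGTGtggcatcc
Pfkfb3, second start, chr2:11553880-11554179, minus strand: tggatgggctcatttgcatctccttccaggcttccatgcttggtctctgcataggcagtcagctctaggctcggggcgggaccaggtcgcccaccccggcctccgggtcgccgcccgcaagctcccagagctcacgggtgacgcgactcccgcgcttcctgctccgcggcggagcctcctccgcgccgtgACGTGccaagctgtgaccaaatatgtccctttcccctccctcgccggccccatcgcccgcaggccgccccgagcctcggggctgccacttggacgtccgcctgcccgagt
Pdk4, chr6:5496229-5496528, minus strand: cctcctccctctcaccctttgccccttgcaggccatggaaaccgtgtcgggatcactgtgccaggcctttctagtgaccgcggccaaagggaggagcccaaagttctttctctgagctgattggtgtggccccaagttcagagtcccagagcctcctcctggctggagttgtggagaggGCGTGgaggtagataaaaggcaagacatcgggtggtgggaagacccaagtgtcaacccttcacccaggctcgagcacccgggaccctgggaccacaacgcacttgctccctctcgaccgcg
Slc16a1, chr3:104638414-104638713, plus strand: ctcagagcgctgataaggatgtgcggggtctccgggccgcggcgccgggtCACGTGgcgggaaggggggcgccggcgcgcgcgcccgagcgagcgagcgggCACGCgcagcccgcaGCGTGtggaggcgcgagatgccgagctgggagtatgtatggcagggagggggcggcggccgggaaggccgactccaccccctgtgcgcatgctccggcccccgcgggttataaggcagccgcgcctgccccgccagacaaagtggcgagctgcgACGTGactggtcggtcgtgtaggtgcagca
Ldha, chr7:46845554-46845853, plus strand: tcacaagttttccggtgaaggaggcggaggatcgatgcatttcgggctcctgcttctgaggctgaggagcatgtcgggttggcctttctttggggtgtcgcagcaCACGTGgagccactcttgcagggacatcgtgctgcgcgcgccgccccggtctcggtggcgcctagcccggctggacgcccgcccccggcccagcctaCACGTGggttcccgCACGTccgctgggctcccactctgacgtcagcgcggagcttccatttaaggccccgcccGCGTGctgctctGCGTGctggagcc
A window was found for 33 of the 35 members (none for Slc2a3 and Slc16a7). Of their 51 windows, 38 (74.5%) held a motif, against 14380 of 32851 windows (43.8%) of all genes with 1 chromosome left out. The median GC content was 61.7% in the members' windows and 52.7% in all windows, and both motifs contain the dinucleotide CG. Matches on both strands numbered 7 in the Ldha window, 5 in the Slc16a1 window, 4 in the first Pfkfb3 window, 1 in the second and 1 in the Pdk4 window. A match is a description of the letters and not a binding site.

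Each value below is a CPM: the unique molecular identifiers (UMIs) of a gene, summed over all cells of a type in a library, per 1000000 UMIs of that type after TMM scaling. Each captured 3′ end is counted once whatever the length of its transcript, so shares between isozymes are shares of captured molecules and not per length. Libraries held 3753 to 13594 barcodes and 45758003 to 141353017 UMIs. The filter kept 70.2 to 74.7% of the barcodes in 5 libraries but 49.8% and 47.2% in cKO libraries 2 and 3. Sums ranged from 312525 UMIs (microglia-like, 47 cells in the smallest library) to 25055736 UMIs (oligodendrocyte-like). Between 2.05% and 3.38% of the kept cells of a library carried a barcode also present in another library. Cell types carry the suffix "-like" because they were rebuilt here from markers, and TAP and OPC stand for transit amplifying precursors and oligodendrocyte precursor cells. The targeted gene was no check of the labels, since a 3′ tag can lie outside the deleted part. Prdm16 in NSC-like cells measured 69.2, 60.9 and 72.1 CPM in control, 55.4, 52.1 and 50.1 CPM in cKO and 59.0 CPM in DKO libraries. It was not lower in astrocyte-like cells (49.9, 45.5 and 47.65 CPM in control, 47.95, 60.5 and 52.8 CPM in cKO and 47.2 CPM in DKO libraries). In ependymal-like cells it measured 21.1 to 25.5 CPM in control, 11.6 to 15.5 CPM in cKO and 14.2 CPM in DKO libraries. Vcam1 in astrocyte-like cells measured 303 to 384 CPM in control, 372 to 404 CPM in cKO and 185 CPM in the DKO library.

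cKO library 1, the library labelled as cKO replicate 1, stood apart from its group. The NSC marker Thbs4 measured 430, 632 and 353 CPM in the control NSC-like cells and 403 CPM in cKO library 1, but 44.1 and 24.4 CPM in cKO libraries 2 and 3. Gfap, a glial filament gene and also an NSC marker, measured 288 to 418 CPM in controls, 371 CPM in cKO library 1, and 923 and 1106 CPM in cKO libraries 2 and 3. In the same order, Hes5 measured 430 to 685, 444, and 140.3 and 240.5 CPM. S100a6 measured 629 to 1367, 811, and 1418 and 1436 CPM, and Igfbp5 1012 to 1358, 1149, and 1278 and 1419 CPM. Fabp7 went the other way, with cKO library 1 farthest from the controls (853 to 1267, 1447, and 1075 and 1352 CPM). The astrocyte gene Agt set cKO library 1 apart from both the controls and the other cKO libraries. In astrocyte-like cells it measured 93.1 to 122 CPM in controls, 606 CPM in cKO library 1, and 1476 and 1520 CPM in cKO libraries 2 and 3. In the DKO library Agt measured 728 CPM in astrocyte-like cells. Whether the deletion was partial in cKO library 1, or its label is right, was not tested. Every cKO mean and p that includes cKO library 1 carries that doubt. The filter kept 49.8% and 47.2% of the barcodes of cKO libraries 2 and 3, against 74.7% of those of cKO library 1. Whether cKO libraries 2 and 3 were the displaced ones was not tested either. Fits without cKO library 1 rest on those cKO libraries alone and carry that doubt in turn. Among the tested members whose groups did not overlap, cKO library 1 was the cKO library nearest to the controls in NSC-like cells for 6 of 8, in astrocyte-like for 3 of 3, in ependymal-like for 6 of 6 and in TAP-like cells for 2 of 5. Of all genes tested, 18%, 15.3%, 14.6% and 11.3% did not overlap in these types. For how many of those genes cKO library 1 was the nearest was not counted. The counts above therefore cannot show whether this is particular to the members. Calls between cKO and control that appeared without this library are given below with their values.

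The members were first compared across cell types, a description without a test because the cells were clustered on genes of the same counts (5 members were among the 2000 genes used). The sum over all 35 members was highest in astrocyte-like cells (10310 ± 1096 CPM, SD, n = 7 libraries), followed by NSC-like (7708 ± 808 CPM) and neuron-like cells (7334 ± 1598 CPM), and was lowest in neuroblast-like cells (2516 ± 177 CPM). The same type was highest in all 7 libraries for 19 of 35 members. By mean, 12 members peaked in neuron-like, 7 in astrocyte-like, 4 in microglia-like, 3 each in endothelial-like and NSC-like, 2 each in ependymal-like and oligodendrocyte-like cells, and 1 each in mural-like and OPC-like cells.

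**Figure D1:**
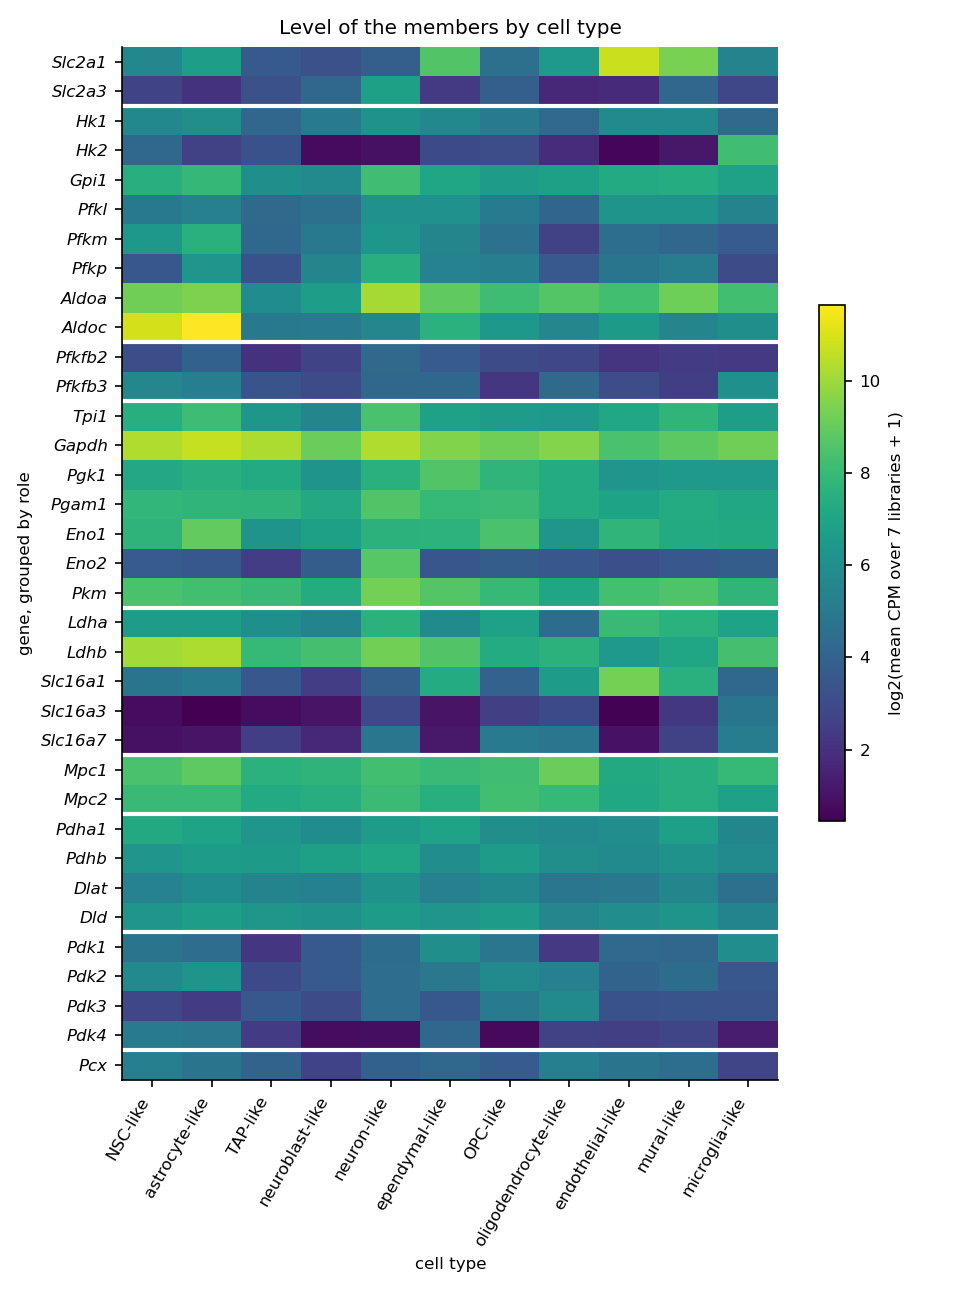
Level of the 35 members (rows, grouped by role) in the 11 cell types (columns), as log2 of the mean CPM over 7 libraries plus 1. Aldoc is brightest in astrocyte-like cells (3185 CPM) and Slc2a1 in endothelial-like cells (1699 CPM).

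Glucose transporters divided the tissue between vessel and neuron. Slc2a1, the transporter of the blood-brain barrier, ranged from 1118 to 2364 CPM in endothelial-like cells, with a median of 1657 CPM. One of the clusters joined as mural-like (341 cells, median 13879 UMIs) held 7 endothelial markers beside 8 mural ones, and the part of endothelial RNA in the mural-like levels of Slc2a1, Slc16a1 and Ldha was not tested. Mural-like cells (422 to 1097 CPM) lay below and overlapped ependymal-like cells (297 to 513 CPM), and neuroblast-like cells were lowest at 5.95 to 12.2 CPM. Slc2a3, the neuronal transporter, ranged from 89.1 to 127 CPM in neuron-like cells, with a median of 108 CPM, and the next type, neuroblast-like cells, reached 13.2 to 22.6 CPM. Slc2a3 supplied 89.1% of the UMIs of both transporters in neuron-like cells and 67.7% in neuroblast-like cells, but 10.8% in NSC-like and 0.2% in endothelial-like cells.

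Upper glycolysis was led by Aldoc, the brain form of aldolase. It ranged from 2584 to 4398 CPM in astrocyte-like cells, with a median of 2900 CPM. NSC-like cells followed at 1511 to 2860 CPM, overlapping the astrocyte-like range, and ependymal-like cells at 130 to 247 CPM. In TAP-like cells Aldoc was 15.4 to 42.2 CPM. Aldoc thus made up 82.1% of aldolase UMIs in astrocyte-like cells and 76.3% in NSC-like cells, against 35.2% in TAP-like and 4.2% in neuron-like cells, where Aldoa was the main form (713 to 1524 CPM). The ratio of Aldoc to the summed astrocyte markers was 0.302 to 0.515 in astrocyte-like cells and 0.369 to 0.952 in NSC-like cells. It overlapped the astrocyte-like range in neuron-like (0.302 to 0.502), neuroblast-like (0.373 to 0.586), OPC-like (0.277 to 0.565), microglia-like (0.243 to 0.581) and oligodendrocyte-like cells (0.117 to 0.316). It lay below that range in TAP-like (0.0832 to 0.264), ependymal-like (0.108 to 0.27), endothelial-like (0.0281 to 0.233) and mural-like cells (0.0188 to 0.237). The part of free RNA in these levels was not tested.

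Hk2, the inducible hexokinase, ranged from 201 to 352 CPM in microglia-like cells, with a median of 312 CPM. The next type, NSC-like cells, reached 11.4 to 21.4 CPM, and endothelial-like cells were at 0 to 1.33 CPM. Hk2 supplied 93.3% of hexokinase UMIs in microglia-like cells, 34.4% in TAP-like and 25.2% in NSC-like cells. The phosphofructokinases also divided by type. Pfkm, the muscle form, was highest in astrocyte-like cells (155 to 248 CPM) and supplied 65.5% of the UMIs of the 3 forms in NSC-like cells. Pfkp, the platelet form, was highest in neuron-like cells (147 to 202 CPM). Pfkl, the liver form, supplied 71.8% in microglia-like cells (50 to 91.5% over libraries), from only 17 to 83 UMIs of the 3 forms per library.

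The regulators of phosphofructokinase were low. Pfkfb2 ranged from 13.9 to 25.6 CPM in neuron-like cells, with a median of 17.3 CPM, and overlapped astrocyte-like cells (11.1 to 18.1 CPM). Pfkfb3, whose product strongly favours glycolysis, ranged from 40.2 to 80.0 CPM in microglia-like, 19.5 to 107 CPM in NSC-like and 27.2 to 57.1 CPM in astrocyte-like cells, which overlapped each other. The other types lay at or below 31.8 CPM, and the lowest were OPC-like cells at 2.39 to 4.80 CPM.

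In lower glycolysis, Pkm, the pyruvate kinase gene, ranged from 443 to 982 CPM in neuron-like cells, with a median of 621 CPM, and overlapped ependymal-like cells (363 to 493 CPM). Eno1, the common enolase, ranged from 364 to 580 CPM in astrocyte-like cells, with a median of 497 CPM, and overlapped OPC-like cells (300 to 434 CPM). Eno2, the neuronal enolase, was the sharpest of the lower enzymes: it ranged from 297 to 521 CPM in neuron-like cells, and its mean there was 33.9 times that of the next type, neuroblast-like cells. Pgk1 was highest in ependymal-like cells (275 to 493 CPM), with OPC-like cells next at 168 to 252 CPM. Gapdh, the glyceraldehyde phosphate dehydrogenase, ran from a mean of 1601 CPM in astrocyte-like to 346 CPM in endothelial-like cells.

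Lactate genes set the vessel wall against astroglia. Ldhb, the form associated with lactate oxidation, ranged from 1072 to 1483 CPM in astrocyte-like cells, with a median of 1145 CPM, overlapped NSC-like cells (947 to 1286 CPM) and was lowest in endothelial-like cells (46.1 to 113 CPM). Ldha, the form associated with lactate production, was highest in endothelial-like cells (197 to 325 CPM), overlapping neuron-like (140 to 262 CPM) and mural-like cells (174 to 246 CPM). Ldha supplied 74.0% of lactate dehydrogenase UMIs in endothelial-like cells (63.5 to 87.6% over libraries), 59.2% in mural-like and 42.6% in OPC-like cells, but 7.6% in astrocyte-like and 8.1% in NSC-like cells. Slc16a1, the transporter MCT1, ranged from 417 to 785 CPM in endothelial-like cells, with a median of 613 CPM, and mural-like cells followed at 154 to 243 CPM. Slc16a3, the export transporter MCT4, was highest in microglia-like cells (11.6 to 55.4 CPM), and Slc16a7, the transporter MCT2, was at 20.5 to 47.2 CPM there and overlapped OPC-like, neuron-like and oligodendrocyte-like cells.

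The pyruvate carrier and the subunits of pyruvate dehydrogenase varied little between types, with the highest mean 2.35 (Dld) to 3.61 times (Mpc1) the lowest. Mpc1 ranged from 518 to 584 CPM in oligodendrocyte-like cells, with a median of 544 CPM, and overlapped astrocyte-like cells (418 to 519 CPM). Pdha1, the catalytic subunit of pyruvate dehydrogenase, ranged from 134 to 169 CPM in NSC-like cells, with a median of 154 CPM, and overlapped ependymal-like cells (102 to 149 CPM). The kinases spanned more, from 11.1 times (Pdk2) to 51.7 times (Pdk4). Pdk2 ranged from 61.7 to 93.6 CPM in astrocyte-like cells, with a median of 73.3 CPM, and Pdk3 from 45.6 to 62.7 CPM in oligodendrocyte-like cells, with a median of 54.6 CPM. Pdk1 was highest in ependymal-like (48.0 to 69.6 CPM) and microglia-like cells (50.3 to 69.8 CPM), which overlapped. Pdk4, the kinase induced by fasting and fatty acids, was at 18.2 to 47.2 CPM in NSC-like, 17.3 to 46.4 CPM in astrocyte-like and 12.3 to 22.6 CPM in ependymal-like cells. The other types lay at or below 8.49 CPM of Pdk4, and OPC-like cells at 0 to 1.23 CPM. Pcx was highest in NSC-like (30.9 to 46.4 CPM) and oligodendrocyte-like cells (32.6 to 46.5 CPM).

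**Figure D2:**
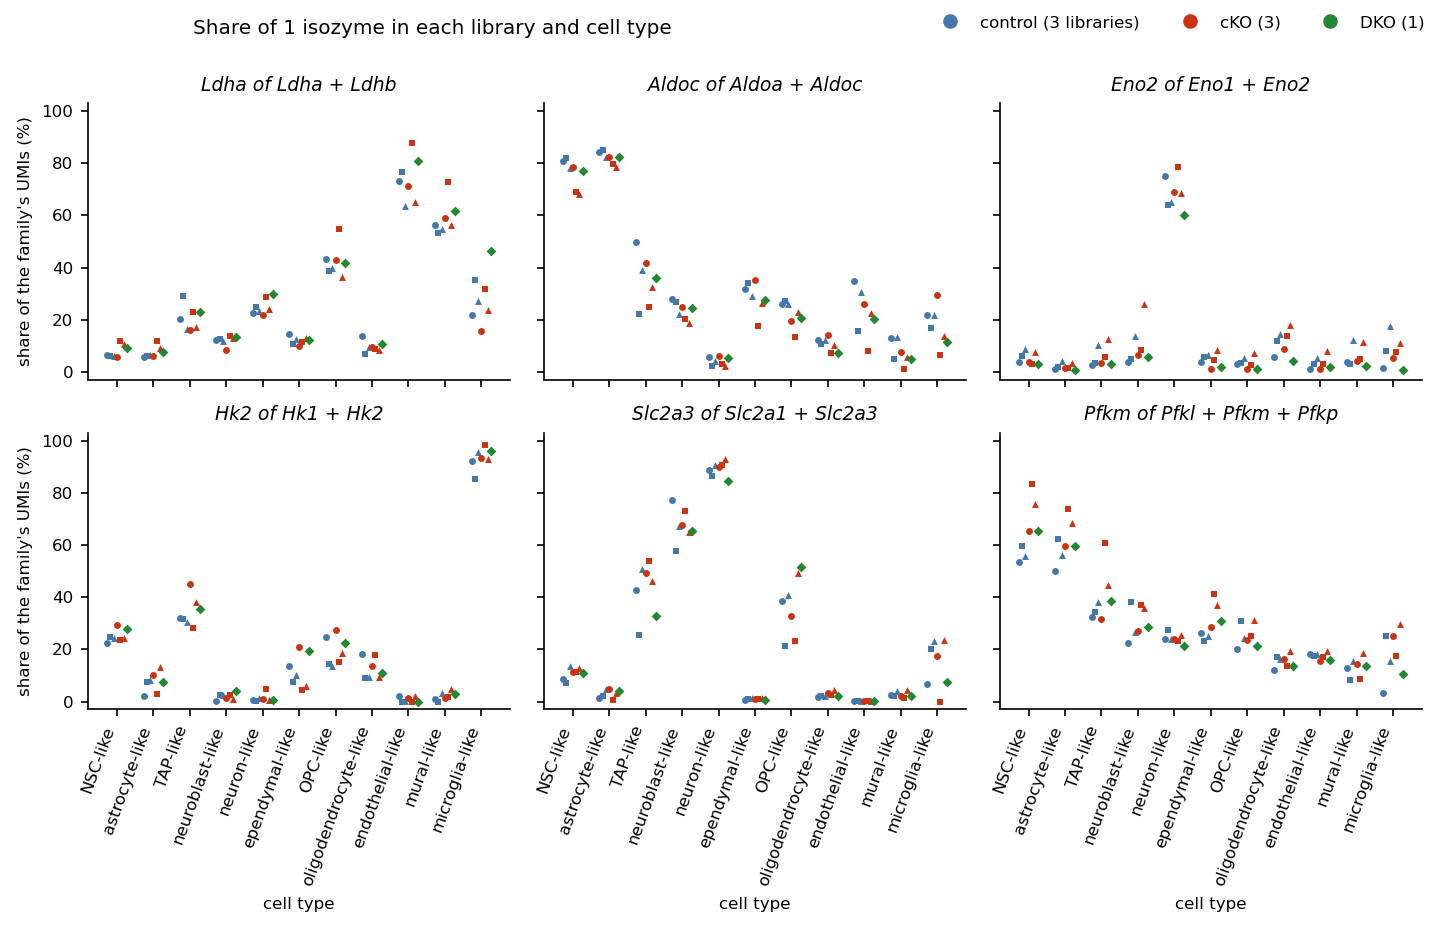
Share of 1 isozyme (vertical axis, percent of the UMIs of its family) in each library (points, coloured by group) and cell type (horizontal axis). Ldha makes up 63.5 to 87.6% in endothelial-like cells and 5.7 to 12% in NSC-like cells.

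The second question was whether loss of Prdm16 changed these genes within a cell type. Pdk4, the kinase that holds pyruvate dehydrogenase off, fell in astrocyte-like cells, and Pfkfb3, the activator of phosphofructokinase, rose in ependymal-like cells. These were the 2 changes called by an edgeR quasi-likelihood test on the summed counts, with Benjamini-Hochberg adjustment over all genes of the type and a threshold of 0.05. Labels give libraries and not individual mice, so these p-values measure the spread between pooled libraries.

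Pdk4 in astrocyte-like cells measured 36.9, 46.4 and 36.3 CPM in the control libraries and 24.9, 17.3 and 18.5 CPM in the cKO libraries. All cKO libraries lay below all controls. Its log2 fold change was -0.96 ± 0.21 (SE, edgeR adjusted p = 0.0282), and the exact two-sided permutation test of 3 against 3 libraries gave p = 0.1, the smallest it can give. Pdk4 was 1 of 33 members called there (1.24% of all 12134 genes tested were called). The call was lost, with adjusted p of 0.0603 to 0.222, when control library 1, 2 or 3 or cKO library 2 or 3 was left out, and also by DESeq2 (-0.95, adjusted p = 0.0813) and with equal totals per library (-0.98, adjusted p = 0.0912). Without cKO library 1 the log2 fold change was -1.13 ± 0.24 (adjusted p = 0.00495). The log2 ratio of mean CPM was -0.98 among libraries of Cell Ranger 6.0.1 and -0.97 between the control and the cKO library of version 6.1.1. Summed NSC markers in these cells were also lower in cKO (1801, 1797 and 1757 CPM against 1726, 1243 and 1543 CPM), and so were neuroblast markers (112, 139 and 133 CPM against 92.2, 64.9 and 100.4 CPM) and fibroblast markers (45.6, 53.0 and 43.3 CPM against 33.7, 28.5 and 31.5 CPM). T cell markers were higher (2.32 to 2.92 CPM against 4.15 to 6.05 CPM), with 3 of 6 at 0. The part of these in the change of Pdk4 was not tested.

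Pfkfb3 in ependymal-like cells measured 8.77, 8.05 and 6.21 CPM in the control libraries, from 34, 8 and 46 UMIs. In the cKO libraries it measured 18.9, 28.1 and 31.8 CPM, from 68, 46 and 122 UMIs. Every cKO library lay above every control. The log2 fold change was 1.81 ± 0.26 (SE, edgeR adjusted p = 0.0208, exact permutation p = 0.1), the 1 call among 34 members against 0.18% of 13910 genes. An unadjusted p under 0.05 was found for 4 members and for 8.53% of all genes. The call was lost, with adjusted p of 0.0579 to 0.201, when control library 1, 2 or 3 or cKO library 2 or 3 was left out, and at a limit of 5% mitochondrial counts (adjusted p = 0.0705). Without cKO library 1 the log2 fold change was 2.03 ± 0.25 (adjusted p = 0.00126, with 2.62% of all genes called). The log2 ratio of mean CPM was 1.48 within Cell Ranger 6.0.1 and 2.36 within 6.1.1.

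Other RNA moved with this result. In ependymal-like cells the sum of 18 immediate early genes was 7337 to 8527 CPM in controls and 3280 to 6872 CPM in cKO libraries, with 9 of the 18 genes lower in all cKO libraries. The sum of 8 mural markers was 371 to 632 CPM in controls and 706 to 941 CPM in cKO libraries. Choroid plexus markers summed to 2272, 2283 and 511 CPM in controls and to 614, 145 and 149 CPM in cKO libraries. Astrocyte markers summed to 915 to 1165 CPM in controls and 1195 to 1286 CPM in cKO libraries, and astrocyte-like cells themselves held 27.2 to 57.1 CPM of Pfkfb3. Neuroblast markers (895 to 1005 CPM against 688 to 842 CPM) and oligodendrocyte markers (462 to 725 CPM against 209 to 391 CPM) were lower in cKO libraries. The parts of all these in the change of Pfkfb3 were not tested.

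Pfkp, the platelet form of phosphofructokinase, measured 48.7, 56.3 and 50.9 CPM in control, 41.9, 23.2 and 25.8 CPM in cKO and 38.7 CPM in DKO ependymal-like cells. The cKO libraries lay below the controls, with cKO library 1 the nearest, and Pfkp was not called in the fit above (log2 fold change -0.73, edgeR adjusted p = 0.241). It was called without cKO library 1 (-1.05 ± 0.18, edgeR adjusted p = 0.00837) and with no filter on low counts (-0.73, edgeR adjusted p = 0.006, where 1.66% of all genes were called). Among the other members, Slc2a1 measured 421 to 513 CPM in control and 297 to 362 CPM in cKO ependymal-like cells, and Pgk1 414 to 493 CPM and 275 to 414 CPM (both picked after their values were seen, neither called).

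**Figure D3:**
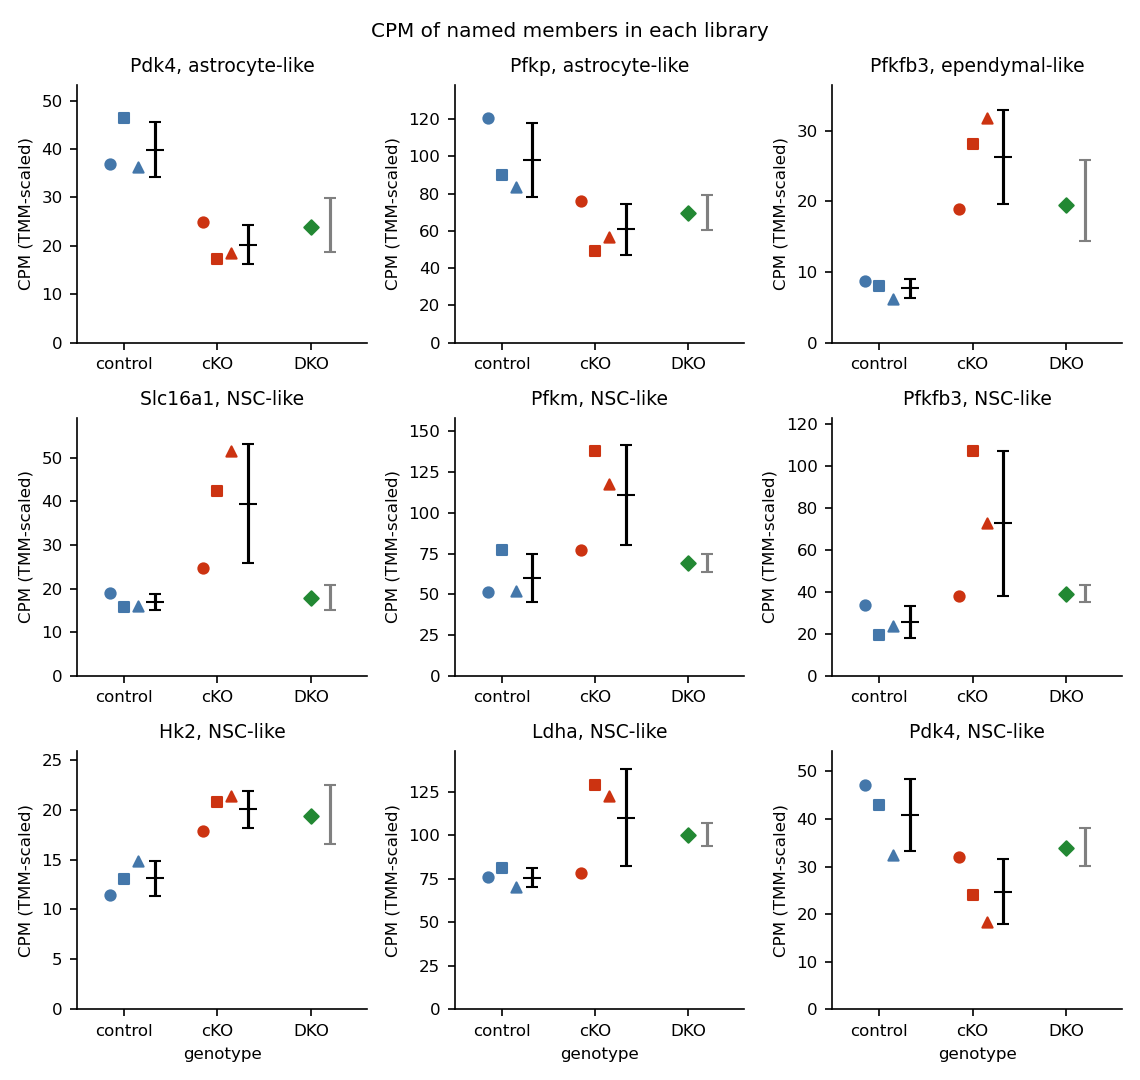
CPM (vertical axis) of named members in each control, cKO and DKO library, one panel per gene and cell type. Circles, squares and triangles are replicates 1, 2 and 3, black bars the mean ± SD of 3 libraries, and the grey bar the exact Poisson 95% interval of the DKO library. The cKO points of Pdk4 in astrocyte-like cells (17.3 to 24.9 CPM) lie below the controls (36.3 to 46.4 CPM).

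In NSC-like cells, the cells the study centred on, 0 of 34 members were called by edgeR (0.153% of 14357 genes were called). DESeq2 called 3 (Slc16a1, Pfkfb3 and Pfkm), and 3.59% of all genes. An unadjusted p under 0.05 was found for 8 members, 7 higher and 1 lower in cKO, and for 13.8% of all genes. The median log2 fold change was 0.14 over the members and -0.00 over all genes, with 24 members above 0 and 10 below, and the members' median spanned 0.04 (without cKO library 3) to 0.20 (without control library 2) with 1 library left out. Groups did not overlap for 8 members, 6 higher and 2 lower in cKO, where 18% of all genes did not overlap. The 6 members with the smallest p follow.

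Slc16a1 in NSC-like cells measured 19.1, 15.7 and 16.0 CPM in control and 24.7, 42.3 and 51.4 CPM in cKO libraries (log2 fold change 1.22 ± 0.25, edgeR adjusted p = 0.0651). Pfkfb3 measured 33.9, 19.5 and 23.6 CPM in control and 38.2, 107 and 73.1 CPM in cKO libraries (1.48 ± 0.38, edgeR adjusted p = 0.149). Pfkm measured 51.2, 77.2 and 52.2 CPM in control and 77.3, 138 and 118 CPM in cKO libraries (0.88 ± 0.24, edgeR adjusted p = 0.126). In all 3 genes cKO library 1 was the lowest cKO library and the nearest to the controls. Hk2 measured 11.4, 13.01 and 14.9 CPM in control and 17.9, 20.8 and 21.4 CPM in cKO libraries (0.60 ± 0.19, edgeR adjusted p = 0.164). Pdk4 measured 47.2, 43.0 and 32.5 CPM in control and 31.9, 24.1 and 18.2 CPM in cKO libraries (-0.72 ± 0.22, edgeR adjusted p = 0.164). Ldha measured 75.9, 80.8 and 70.1 CPM in control and 78.1, 129 and 123 CPM in cKO libraries (0.54 ± 0.19, edgeR adjusted p = 0.228), and its groups overlapped. Each exact permutation test was at its floor of p = 0.1 where groups did not overlap. Without integration the log2 fold change was 0.68 for Slc16a1 (edgeR adjusted p = 0.126) and 0.52 for Pfkm (edgeR adjusted p = 0.404). For Hk2 it was 0.20 in cells picked by a marker gate (edgeR adjusted p = 0.883). At a limit of 5% mitochondrial counts it was 0.35 for Hk2 (edgeR adjusted p = 0.7).

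The NSC-like results turned on 1 library. Without cKO library 1, 7 members were called by edgeR, where 11.4% of 14496 genes were: Slc16a1 (log2 fold change 1.48, adjusted p = 3.83e-05), Pfkfb3 (1.78, adjusted p = 0.000171), Pfkm (1.09, adjusted p = 0.00104), Ldha (0.73, adjusted p = 0.00506), Hk1 (0.69, adjusted p = 0.0095) and Hk2 (0.68, adjusted p = 0.0439) higher, and Pdk4 (-0.98, adjusted p = 0.00537) lower. With any other single control or cKO library left out, edgeR called 0. With all control and cKO libraries in place and the DKO library left out, 3 members were called by edgeR with the replicate number as a block, where 3.43% of all genes were: Slc16a1 (adjusted p = 0.0436), Pdk4 (adjusted p = 0.0275) and Pfkm (adjusted p = 0.0153). The same libraries without the block gave 0. With all 7 libraries and no filter on low counts, where 2.51% of all genes were called by edgeR, Slc16a1 (adjusted p = 0.000565), Pdk4 (adjusted p = 0.0169) and Pfkm (adjusted p = 0.00655) were called as well. The neuroblast markers in NSC-like cells summed to 301 to 386 CPM in controls and 169 to 271 CPM in cKO libraries, the microglia markers to 47.5 to 61.9 CPM and 42.7 to 46.4 CPM, and the astrocyte markers to 2662 to 3004 CPM and 2975 to 4123 CPM. Of the ependymal markers, Foxj1 (18.8 to 22.9 CPM against 31.9 to 106 CPM) and Cfap126 (18.9 to 26.2 CPM against 35.4 to 83.4 CPM) were higher in all cKO libraries. The other ependymal markers overlapped between the groups. Mean Slc16a1 was 161.4 CPM in ependymal-like and 26.7 CPM in NSC-like cells. Astrocyte-like cells held more Pfkm than NSC-like cells but the levels of Pfkfb3 and Pdk4 overlapped between both types. Whether these marker differences come from cell makeup or from expression within the cells was not tested, and neither was their part in the members' values.

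Isozyme shares in NSC-like cells are given as a description, without a test. Pfkm supplied 53.6, 59.8 and 55.7% of phosphofructokinase UMIs in control and 65.4, 83.3 and 75.8% in cKO libraries. Ldha supplied 6.5, 6.0 and 6.3% of lactate dehydrogenase UMIs in control and 5.7, 12 and 10.9% in cKO libraries, so cKO library 1 lay below the controls and the other cKO libraries above them. Pdk4 supplied 40.8, 29.8 and 29.7% of kinase UMIs in control and 29.3, 18.9 and 15.6% in cKO libraries. By role, the sum of Pfkfb2 and Pfkfb3 was 28.6 to 39.8 CPM in control and 45.1 to 120.6 CPM in cKO libraries without overlap. The sums of upper glycolysis (2461 to 3906 CPM against 2614 to 3161 CPM), lower glycolysis (1997 to 2708 CPM against 2332 to 2483 CPM) and lactate genes (1130 to 1372 CPM against 1120 to 1390 CPM) overlapped between control and cKO libraries. The sum of the 4 subunits of the pyruvate dehydrogenase complex was 328 to 342 CPM in control and 361 to 375 CPM in cKO libraries. Its subunit Pdha1 measured 144, 134 and 136 CPM in control and 161, 169 and 160 CPM in cKO libraries without overlap and was not called.

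In astrocyte-like cells the other members of smallest p were not called. Pfkp measured 120.5, 90.2 and 83.5 CPM in control and 76.1, 49.3 and 56.9 CPM in cKO libraries, all lower (log2 fold change -0.67 ± 0.19, edgeR adjusted p = 0.124). Without cKO library 1 Pfkp was called, where 4.37% of all genes were (-0.86 ± 0.21, edgeR adjusted p = 0.0152). It was also called by edgeR with the replicate number as a block and the DKO library left out (-0.68, adjusted p = 0.00536, 4.3% of all genes called), with no filter on low counts (-0.68, adjusted p = 0.0125, 2.25%) and in cells picked by a marker gate (-0.95, adjusted p = 0.0452, 1.36%). Pdk3 measured 2.36, 2.92 and 3.35 CPM in control and 7.84, 2.595 and 8.57 CPM in cKO libraries (1.21 ± 0.47, edgeR adjusted p = 0.33), with cKO library 2 among the controls. Ldha measured 69.1, 94.4 and 85.3 CPM in control and 83.9, 144 and 116 CPM in cKO libraries (0.45, edgeR adjusted p = 0.423). Pfkfb3 was at 39.3, 27.2 and 29.6 CPM in control and 38.3, 57.1 and 30.2 CPM in cKO libraries (0.33, edgeR adjusted p = 0.694), and Hk2 had a log2 fold change of 0.86 (edgeR adjusted p = 0.642). With 1 library left out, the log2 fold change spanned 0.09 to 0.55 for Pfkfb3, 0.31 to 1.18 for Hk2 and 0.27 to 0.64 for Ldha. The median over 33 members was 0.05 (0.02 to 0.10 with 1 library left out), with 20 above 0 and 13 below, and 4 had an unadjusted p under 0.05 (10% of all genes did).

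**Figure D4:**
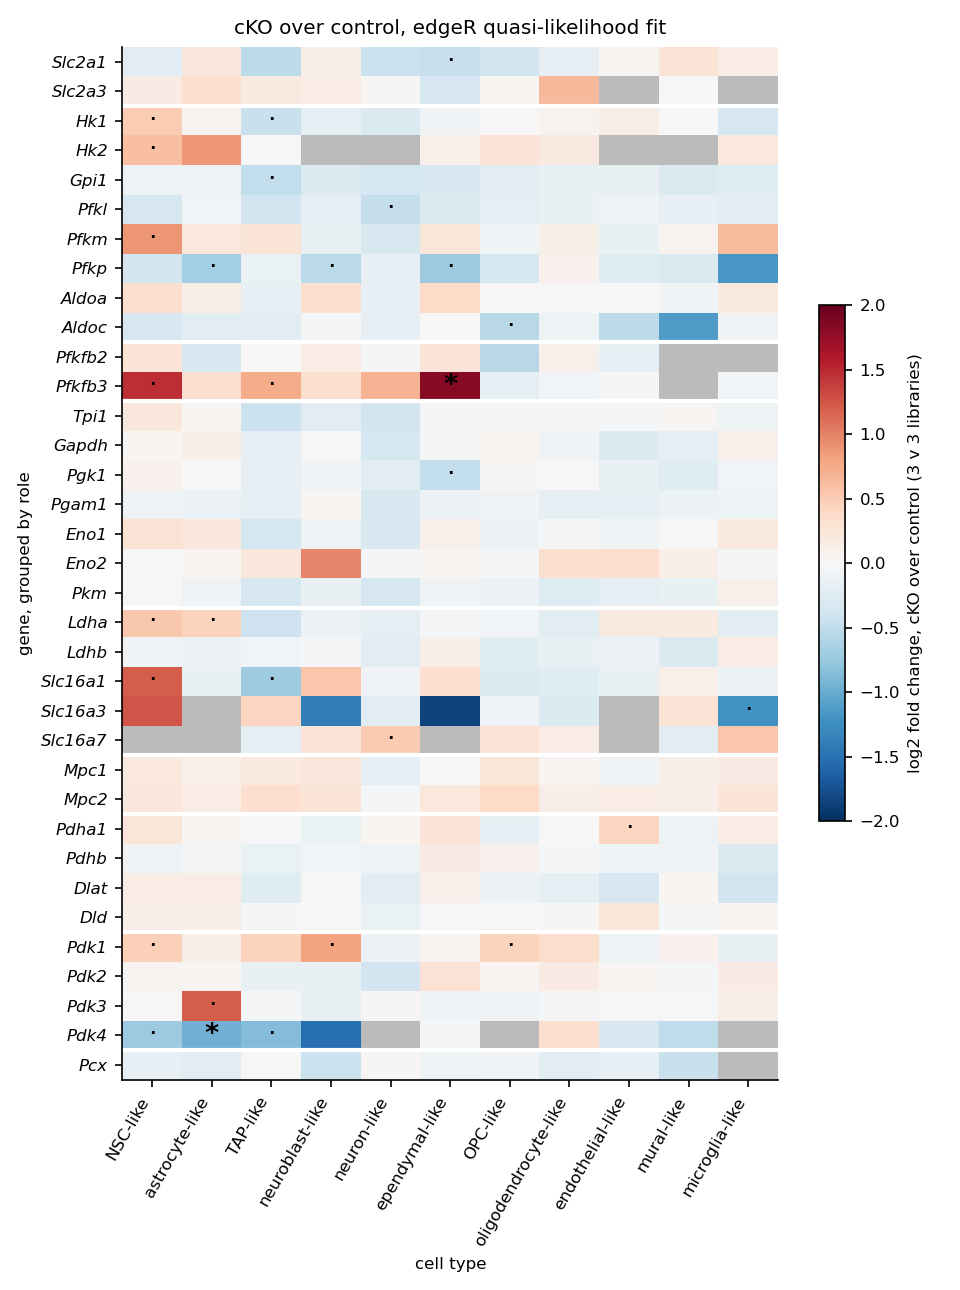
Log2 fold change of cKO over control (colour) for each member (rows, grouped by role) in each cell type (columns). A star marks an edgeR adjusted p under 0.05, a dot an unadjusted p under 0.05, and grey a member not tested. Stars stand only at Pdk4 in astrocyte-like and Pfkfb3 in ependymal-like cells.

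In the remaining 8 types 0 members were called by edgeR in the fit with all libraries and no block, and 0 by DESeq2. At an unadjusted p under 0.05 stood 5 of 35 members in TAP-like cells (background: 0% of genes called and 5.87% at that p), 2 of 34 in neuroblast-like (0.0292% and 8.6%), 2 of 33 in neuron-like (0.0377% and 3.04%), 2 of 34 in OPC-like (0% and 4.55%), 0 of 35 in oligodendrocyte-like (0% and 2.04%), 1 of 31 in endothelial-like (0% and 2.06%), 0 of 32 in mural-like (0.0089% and 3.56%) and 1 of 31 in microglia-like cells (0% and 3.33%). In neuron-like cells 27 of 33 members lay below 0, with a median of -0.18 against -0.00 over all genes, and this median spanned -0.32 (without cKO library 3) to -0.05 (without cKO library 2) with 1 library left out. The neuron markers themselves summed to 13700 to 16630 CPM in control and 10040 to 12300 CPM in cKO neuron-like cells. In the same cells OPC markers were higher in cKO (107 to 137 CPM against 141 to 243 CPM), and microglia (22.8 to 29.0 CPM against 13.3 to 20.9 CPM) and choroid plexus markers (5.03 to 10.5 CPM against 3.20 to 4.72 CPM) were lower. In TAP-like cells 25 of 35 lay below 0, with a median of -0.15 against -0.02 over all genes, and this median was -0.03 without control library 2. Neuroblast markers (4834 to 5186 CPM against 3561 to 4595 CPM), endothelial markers (26.8 to 39.5 CPM against 15.9 to 26.7 CPM) and choroid plexus markers (1.96 to 6.32 CPM against 0.714 to 1.26 CPM) were lower in the cKO TAP-like cells, and OPC markers (37.0 to 45.9 CPM against 47.2 to 78.2 CPM) were higher. The part of these markers in the members' values of either type was not tested. These counts describe the list and carry no test. Without cKO library 1 the kinase gene Pdk1 was called in neuroblast-like cells (1.04 ± 0.25, edgeR adjusted p = 0.0459, where 2.31% of 13698 genes were called). It measured 7.54, 8.72 and 8.20 CPM in control, 9.50, 14.6 and 18.4 CPM in cKO and 12.4 CPM in DKO libraries, without overlap between control and cKO (adjusted p = 0.455 with all libraries, edgeR). TAP markers in these cells summed to 68.4 to 71.6 CPM in control and 30.0 to 62.2 CPM in cKO libraries, and their part was not tested.

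Pfkfb3 and Pdk4 were lower in level in TAP-like cells, where the same order of groups was seen. Pfkfb3 measured 7.53, 6.17 and 7.10 CPM in control and 8.63, 12.1 and 14.5 CPM in cKO libraries. Pdk4 measured 6.23, 5.29 and 5.18 CPM in control and 4.02, 1.07 and 3.36 CPM in cKO libraries. Neither was called, and both were singled out here after their values were seen. In ependymal-like cells Pdk4 was 17.7 ± 1.17 CPM in control and 17.9 ± 5.26 CPM in cKO libraries (SD, n = 3 each), and Pfkfb3 in astrocyte-like cells overlapped between the groups. Whether the changes differed between cell types was not tested.

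**Figure D5:**
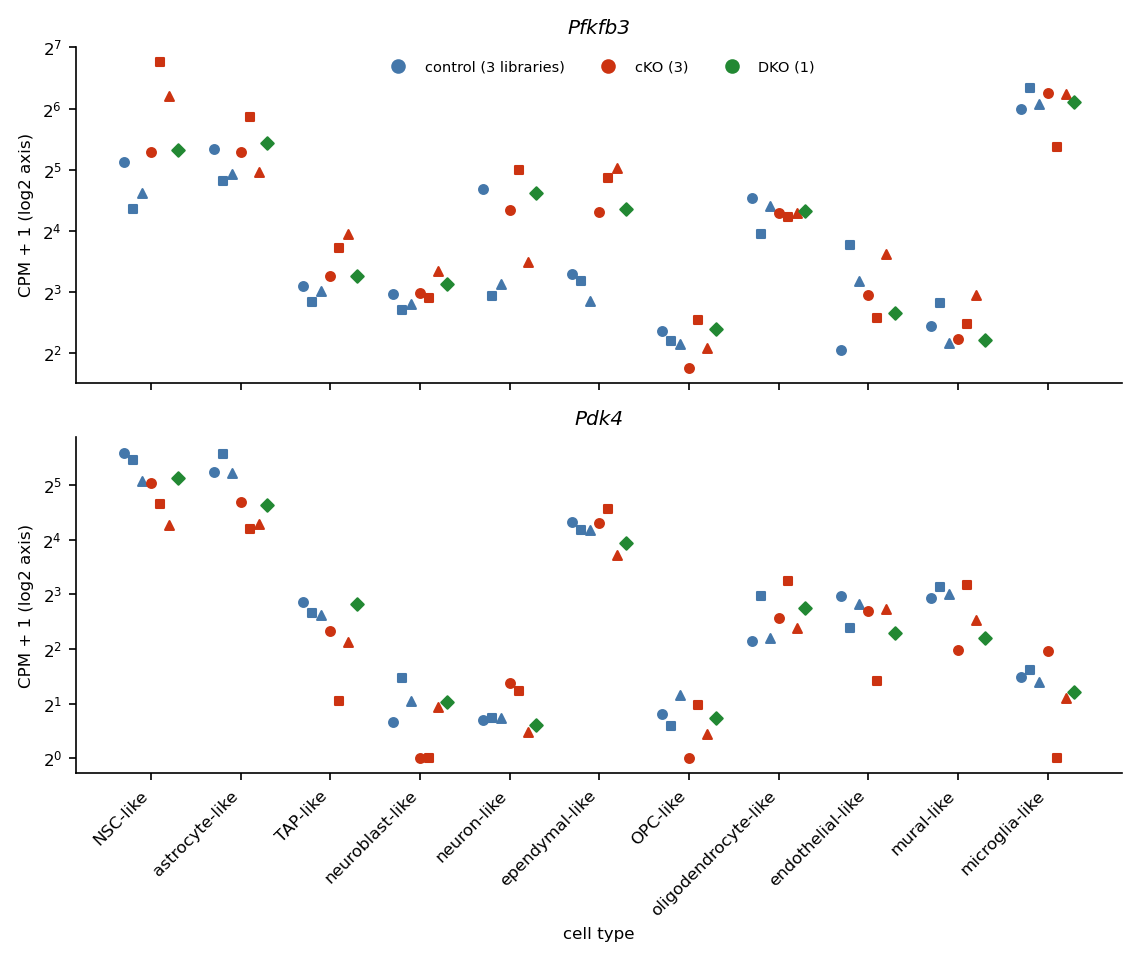
CPM plus 1 of Pfkfb3 and Pdk4 (vertical axis, log2 scale) in each library of each cell type (horizontal axis), coloured by group. The cKO points of Pfkfb3 lie above the controls in NSC-like, TAP-like and ependymal-like cells, and those of Pdk4 below them in NSC-like, astrocyte-like and TAP-like cells.

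Libraries with equal replicate numbers deviated together from their group means in mural-like cells (correlations of 0.274, 0.129 and 0.393), and Aldoc was called there once the replicate number entered as a block in a fit of the 6 control and cKO libraries (log2 fold change -1.23 ± 0.20, edgeR adjusted p = 0.00562, where 0.157% of 10181 genes were called). Aldoc in mural-like cells measured 85.1, 37.4 and 84.5 CPM in control and 47.1, 6.85 and 35.4 CPM in cKO libraries, which overlapped, and without the block it was not called, either in these 6 libraries (-1.14 ± 0.59, edgeR adjusted p = 1) or in all 7 (-1.14 ± 0.58, edgeR adjusted p = 1). Astrocyte markers in mural-like cells summed to 322 to 441 CPM in control and 348 to 380 CPM in cKO libraries. Neuroblast markers were lower there (334 to 476 CPM against 52.5 to 224.5 CPM) and endothelial markers higher (6098 to 6422 CPM against 7051 to 8442 CPM), and their part was not tested.

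A wider list of 154 other genes of glucose and energy metabolism gave 1 call over all types. Ak4, an adenylate kinase induced in hypoxia, rose in astrocyte-like cells from 39.3, 33.0 and 37.6 CPM in control to 55.8, 95.1 and 65.1 CPM in cKO libraries (log2 fold change 0.94 ± 0.20, edgeR adjusted p = 0.0252), 1 of 121 list genes tested there (1.24% of all genes were called). The call was lost, with edgeR adjusted p of 0.0547 to 0.155, when control library 1, 2 or 3 or cKO library 2 or 3 was left out, and with equal totals per library (edgeR adjusted p = 0.0522). Without cKO library 1 the log2 fold change was 1.10 ± 0.21 (edgeR adjusted p = 0.00164). The NSC, neuroblast and fibroblast marker sums, lower in all cKO libraries of these cells, moved with Ak4 as with Pdk4, and their part was not tested. Ak4 also lay above every control, uncalled, in NSC-like cells (17.1 to 22.5 CPM against 26.7 to 80.9 CPM, edgeR adjusted p = 0.133). The same held in TAP-like cells (1.86 to 3.12 CPM against 3.55 to 9.64 CPM, edgeR adjusted p = 0.751). Its groups overlapped in ependymal-like cells (7.22 to 15.1 CPM against 12.8 to 25.7 CPM, edgeR adjusted p = 0.268). A difference of Ak4 between types was not tested. In NSC-like cells 0 of 129 were called by edgeR, with 15 higher and 10 lower at an unadjusted p under 0.05 (0.153% of all genes called and 13.8% at that p). In ependymal-like cells 0 of 133 were called by edgeR, with 5 higher and 11 lower at that p (0.18% and 8.53% of all genes).

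The DKO library was compared by its place, since 1 library has no replicate and cKO and DKO were set against the same controls. By file header, only control library 3 and cKO library 3 had the Cell Ranger version of the DKO library, and the part of that was not tested. In NSC-like cells 20 of 35 members lay within the control range in the DKO library, with no share over all genes to set beside it. Outside both the control and the cKO range lay 3 (Slc2a1, Pfkfb2 and Pcx), all below, or 8.82% of the 34 tested members against 24.4% of all genes tested. Slc16a1 was at 17.8 CPM in DKO NSC-like cells, within the control range and below every cKO library, and so was Pfkm at 69.1 CPM. Pfkfb3 at 39.1 CPM (exact Poisson 95% interval 35.1 to 43.4, counting error only) and Hk2 at 19.4 CPM lay above the controls and within the cKO range. Pdk4 at 34.0 CPM (30.2 to 38.0) lay within the control range.

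For the called genes the DKO library lay on the cKO side. Pdk4 in astrocyte-like cells was at 23.8 CPM (18.7 to 29.9), below all controls and within the cKO range. Pfkfb3 in ependymal-like cells was at 19.5 CPM (14.4 to 25.9), above all controls and within the cKO range. Ak4 in astrocyte-like cells was at 59.1 CPM, also above all controls and within the cKO range. In the DKO ependymal-like cells the immediate early sum was 9717 CPM and the choroid plexus sum 3335 CPM, both above every control, whereas the immediate early sums of the cKO libraries lay below every control. In OPC-like cells 16 of 34 tested members (47.1%) lay outside both ranges in the DKO library, 15 of them below, against 30.7% of all genes tested (15.4% below).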

How the data were processed

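V-SVZ tissue was profiled with 10x Genomics 3′ v3.1 chemistry in 7 libraries. The authors deposited raw UMI counts per gene and cell barcode, made with Cell Ranger on mm10 (GRCm38). The labels name version 6.1.1, whereas the file headers name 6.0.1 for replicates 1 and 2 of control and cKO and 6.1.1 for the rest. Values were not normalized before deposit, and 0 columns had to be left out.

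The members and gene lists were chosen with earlier results of these data known. Cells with 500 to 7000 genes and at most 10% mitochondrial counts were integrated and clustered in Seurat 5.3.0 (R 4.3.3; 2000 variable genes, 30 components, resolution 0.15). A marker passed when present in 10% or more of a cluster's cells and 1 or more (log2) above the other clusters. A cluster was named by the type with the largest share of passing markers, with 3 or more required. It stayed unnamed when its leading genes belonged to another type or did not separate 2 passing types, except NSC and astrocyte. The NSC-like cluster passed 6 NSC and 9 astrocyte markers. A marker gate on single cells gave the same name to 40.5% of NSC-like and 30.6% of TAP-like cells. Erythrocyte-like, fibroblast-like, T cell and unnamed clusters were left out. Scrublet in scanpy 1.11.5 marked 1043 cells (2.41%) as doublets, which were kept and left out in an alternative. A second entry with the symbol Aldoa held 115 UMIs against 161830 and was kept apart.

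Counts were summed per library and type (at least 10 cells) and tested with edgeR 4.0.16 (filterByExpr, TMM, robust quasi-likelihood fit of 3 groups), tested before on simulated data. Exact two-sided permutation tests compared mean CPM. Intervals and floors cover counting error only. Fold changes are given for called members and, in NSC-like and astrocyte-like cells, for the 6 members of smallest p, and level ranges for the members of each role with the highest mean CPM. DESeq2 1.42.0 and 20 other alternatives were run, 2 of which (removal of shared barcodes and a block for the Cell Ranger version) were added after the data were seen. Replicate numbers have no stated shared origin. Same-numbered libraries deviated together (all 3 correlations above 0.1) in oligodendrocyte-like, endothelial-like and mural-like cells, where the lowest was 0.131, 0.131 and 0.129. In the other types the lowest was -0.092 to 0.069, so the block is given there only as an alternative.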

Additional observations from a re-analysis of the deposited data

Results flagged for a closer look

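Slc16a1, the lactate and ketone transporter MCT1, was picked by its values from all members and cell types. Its cKO libraries lay above every control in one cell type and below every control in another. In NSC-like cells the cKO libraries (24.7, 42.3 and 51.4 CPM) lay above the controls (15.7 to 19.1 CPM), with a log2 fold change of 1.22. In oligodendrocyte-like cells they (89.2, 81.1 and 91.1 CPM) lay below the controls (117, 92.3 and 98.4 CPM), with a log2 fold change of -0.24. In the same cells neuroblast markers (157, 175 and 189 CPM against 152, 49.6 and 132 CPM) and microglia markers (29.1 to 40.9 CPM against 17.9 to 21.6 CPM) were lower in all cKO libraries, and their part was not tested. Neither change was called in the edgeR fit with all libraries, the filter on low counts and no block. In oligodendrocyte-like cells the nearest libraries stood at 91.1 CPM in cKO and 92.3 CPM in control. There 0 of 35 members had an unadjusted edgeR p under 0.05, and 2.04% of all genes did. Of all genes in NSC-like cells, 18% did not overlap between control and cKO libraries. That share was not computed for oligodendrocyte-like cells, so the lack of overlap there has no background beside it. In NSC-like cells Slc16a1 was called in 4 of 21 alternatives. These were edgeR with the replicate block and no DKO library (adjusted p = 0.0436), with no filter on low counts (adjusted p = 0.000565) and without cKO library 1 (adjusted p = 3.83e-05), and DESeq2 (adjusted p = 0.00132). Slc16a1 was not called by edgeR without integration (log2 fold change 0.68, adjusted p = 0.126) or in cells picked by a marker gate (1.08, adjusted p = 0.42). The difference between the types was not tested. The DKO library measured 17.8 CPM in NSC-like cells and 89.4 CPM in oligodendrocyte-like cells.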

How the results depend on the processing

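For the 13 pairs of gene and cell type named by the rule on p, each run under 17 to 21 alternatives, none of those alternatives turned the direction. Members called numbered 2, and 4 by DESeq2, 3 by marker gate (Pfkp in astrocyte-like cells beside the 2), 1 each at a limit of 5% mitochondrial counts, with equal totals and without integration, and 7 each with a replicate block and without a filter on low counts. The other alternatives that kept all control and cKO libraries gave 2. Leaving out 1 library gave 0 to 12, with 12 only without cKO library 1. Genes called in the wider list numbered 1, and 8 by DESeq2, 19 without a filter, 10 with the replicate block, 0 without integration, and 2 each with the Cell Ranger version as a block, at the 5% limit, with the members kept out of clustering, at resolution 0.3 and without shared barcodes. Leaving out 1 library gave 0 to 32. Calls over all genes moved with the settings as well. Of all genes in NSC-like cells, edgeR called 0.153% with all libraries and 2.51% without a filter. It called 3.43% with the replicate block and 11.4% without cKO library 1, and DESeq2 called 3.59%. In astrocyte-like cells the edgeR shares were 1.24%, 2.25%, 4.3% and 4.37% in that order. The counts of both lists were not tested against these shares. Pdk4 in astrocyte-like cells was no longer called by DESeq2 (-0.95) or with equal totals (-0.98), and spanned -1.13 to -0.84 with 1 library left out. Pfkfb3 in ependymal-like cells was no longer called at the 5% limit (1.88) and spanned 1.61 to 2.03 with 1 library left out. The causes were not tested. A fit with 1 library left out also holds fewer libraries, while DESeq2, equal totals and the 5% limit kept all of them. The median of the members moved from 0.01 to 0.14 in ependymal-like cells at the 5% limit (-0.02 to 0.06 with 1 library left out) and from -0.15 to between -0.20 and -0.03 in TAP-like cells with 1 library left out (-0.0268 without control library 2). DKO members outside both ranges in NSC-like cells numbered 3, and 5 by marker gate. With the replicate block, a fit that also leaves out the DKO library, Pfkm, Slc16a1 and Pdk4 (-0.74, edgeR adjusted p = 0.0275) in NSC-like cells and Pfkp in astrocyte-like cells (-0.68, edgeR adjusted p = 0.00536) became called, and 3 to 6 of 6 libraries correlated best with their own number. The cell type of highest mean was the same for 25 of 35 members without integration, for 30 by marker gate, and for 34 or 35 under the other settings. The unintegrated clusters held no astrocyte-like cells, so no fit was made there. Pfkfb3 rested on 8 to 122 UMIs per library in ependymal-like cells, which limits its precision.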
